A study of Homo sapiens with 6 samples.

Results

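The genes described here are 33 transcriptional targets of the tumour suppressor p53, read in MDA-MB-231, a long-established line of human breast cancer cells. They were taken by name from a list of well-known targets, and the platform annotation gave a probe set assigned to 1 gene symbol for 30 of them, out of 19775 genes measured. TIGAR stands for the listed symbol C12orf5. BTG2 and FDXR were not analysed here, and BBC3 was left out because its probe set is also assigned to microRNA genes. The 30 genes were read by 83 of the 54613 probe sets tested, and 11 of the genes by 1 probe set each.

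Both groups were MDA-MB-231 cells. One, with 3 arrays, had received a control vector by transfection, and the other, also with 3 arrays, an expression plasmid for HS3ST2, a heparan sulfate 3-O-sulfotransferase. The labels number the replicates but do not say whether they came from separate cultures, so the p-values measure the spread between these arrays. No source used here gives the time after transfection, the promoter of the plasmid, or whether cells were selected or cloned. The probe set for HS3ST2 itself read -0.22, 0.17 and -0.11 on the control arrays and 0.16, 0.04 and -0.04 on the others. Those ranges overlap (difference 0.11, 95% interval -0.13 to 0.35, limma adjusted p = 0.523), so the label was not checked by this gene and the second group is called HS3ST2-labelled.

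p53 is a transcription factor that damage and other stress stabilise. It binds paired copies of a short half-site near its target genes and raises transcripts for growth arrest, death, DNA repair and its own removal through MDM2. Many of the same genes are also driven by other factors. The name given to this set of targets calls the cells p53-mutant, and the activity of p53 in them was not measured here.

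All values are log2 numbers relative to the median of the same probe set over the 6 arrays. Differences between arrays can be read from them. The level of a gene cannot, so no gene is compared with another in abundance, and the labelled cell type cannot be checked by whether its markers are present. Differences are HS3ST2-labelled minus control, with the moderated SE and n = 3 per group, and a change was called at an adjusted p under 0.05 over all 19775 genes.

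The half-sites that p53 binds can be looked for in the RefSeq promoter windows (build GRCh38.p14), which run from 250 bases before to 50 after a transcript start. Windows were held for 22 of the 30 genes, and not for GADD45A, PHLDA3, TNFRSF10A, TNFRSF10B, TNFRSF10C, TNFRSF10D, RRM2B and TP53INP1. The p53 half-site consensus, searched on both strands at once because it is its own reverse complement, lay in 5 of their 32 windows (15.6%), against 6.63% of 35116 windows of all genes. Half-sites paired with a spacer of 0 to 13 bases, each with at most 1 base off the consensus outside its fixed C and G, lay in 3 windows (9.38%), of which 2 are overlapping windows of MDM2, against 1.84% of all windows. Overlapping pairs were allowed. The matches before the start are printed because they show where p53-type half-sites stand next to these genes. Half-sites are in capitals, each line reads 5′ to 3′ on the gene's strand, and a match is not evidence of binding in these cells.
MDM2: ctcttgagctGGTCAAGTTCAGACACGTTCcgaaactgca
FAS: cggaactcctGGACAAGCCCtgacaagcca
AEN: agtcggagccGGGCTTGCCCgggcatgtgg
SESN1: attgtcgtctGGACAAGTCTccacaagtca
PLK2: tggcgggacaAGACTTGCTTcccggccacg
They lie at chr12:68808913-68808952 (plus strand), chr10:88991299-88991328 (plus), chr15:88621296-88621325 (plus), chr6:109009018-109009047 (minus) and chr5:58460199-58460228 (minus). The MDM2 pair has a spacer of 0 and begins at -101 or -94 from the start, depending on which of its annotated starts is used. DDB2 also held pairs beginning at -5 and 5 from its start, and half-sites at 5 and 16. None of these ended before the start, so none is printed. MDM2, FAS and AEN were called lower in the HS3ST2-labelled arrays, DDB2 was called higher, and SESN1 and PLK2 were not called.

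Of the 30 measured targets, 9 rose, 8 fell and 13 were not called. Over all genes tested 24.5% were called, 11.5% higher and 13% lower, against 56.7% of the targets. The median difference of the targets was -0.04 log2, with 14 positive and 16 negative, and that of all genes was 0.01. The median size was 0.237 log2 for the targets and 0.115 for all genes. The targets therefore moved in both directions, and their mean stayed near 0: it lay between -0.02 and 0.02 on the control arrays and between 0 and 0.02 on the HS3ST2-labelled arrays. The groups did not overlap for 21 of the 30 genes (70%), against 40.4% of all genes. For single probe sets, 16 of 83 were higher and 17 lower, where 16.9% of all probe sets were called, 7.9% higher and 8.98% lower. No target had called probe sets in both directions.

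**Figure D1:**
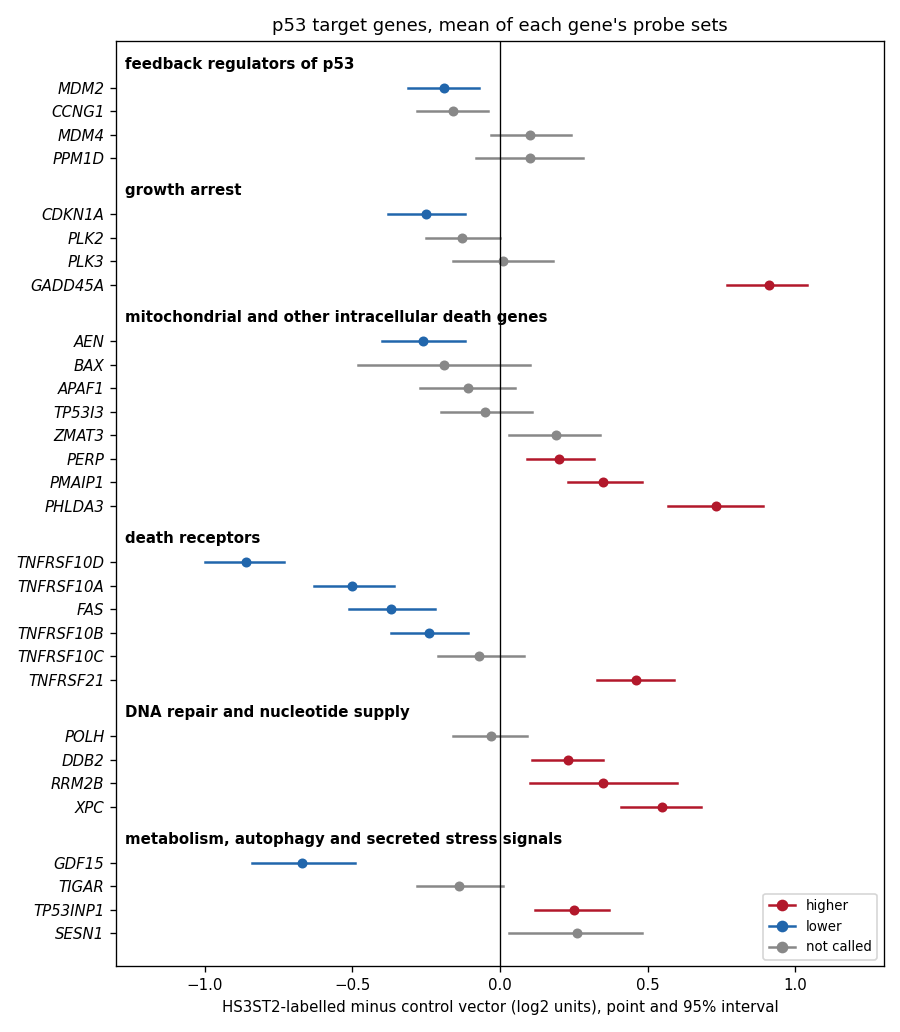
Difference between HS3ST2-labelled and control vector arrays for the 30 measured p53 targets, in log2 units with 95% intervals, grouped by role and coloured by the limma call. The death receptors lie mostly to the left of 0 (4 of 6 lower) and the repair genes mostly to the right (3 of 4 higher), while the other roles hold genes on both sides. Over all genes 13% were called lower and 11.5% higher.

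Among the genes by which p53 limits its own activity, 1 of 4 fell (25%, against 13% of all genes) and none rose. MDM2, the ubiquitin ligase that marks p53 for degradation, read 0.14, 0.09 and 0.05 on the control arrays and -0.07, -0.12 and -0.10 on the HS3ST2-labelled arrays. Every control array was above every HS3ST2-labelled array, and MDM2 fell by 0.19 ± 0.05 (SE; limma adjusted p = 0.0312). The call was close to the threshold. It was lost without control replicate 1 (-0.17, adjusted p = 0.0852), control replicate 2 (-0.19, 0.0789), HS3ST2 replicate 1 (-0.20, 0.0611), HS3ST2 replicate 2 (-0.18, 0.0947) or HS3ST2 replicate 3 (-0.19, 0.083).

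The 10 MDM2 probe sets did not share 1 difference (adjusted p = 0.0108 by limma's diffSplice, which tests whether the probe sets of a gene differ in their change). Probe set 225160_x_at was lowest at -0.82 ± 0.22, with values of 0.37, 0.15 and 0.20 on control arrays and -0.15, -1.14 and -0.47 on HS3ST2-labelled arrays. Its HS3ST2 replicate 2 value is far below the others. Probe set 229711_s_at fell by 0.34 ± 0.09, and the other 8 were not called, from -0.32 to 0.13. Without the probe sets whose names end in _x_at or _s_at, which can match several transcripts or genes, MDM2 stood at 0.02 (adjusted p = 0.894).

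MDM4, an MDM2 relative that holds p53 inactive, was not called (0.10 ± 0.06, interval -0.03 to 0.24). Of its 6 probe sets 236814_at alone was called, higher by 0.51 ± 0.13, with -0.41, -0.10 and -0.37 on control arrays against 0.10, 0.10 and 0.47. PPM1D, the phosphatase that switches damage signalling off, was not called (0.10 ± 0.08, interval -0.08 to 0.28). CCNG1, cyclin G1, missed the threshold although its groups did not overlap: it read 0.12, 0.13 and 0.05 on control arrays and -0.07, -0.05 and -0.06 on the others (-0.16 ± 0.05, adjusted p = 0.0528).

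The growth arrest genes went apart. GADD45A, a stress-induced binding partner of cell cycle and MAP kinase proteins, had the largest difference of all 30 targets. It read -0.55, -0.43 and -0.42 on the control arrays and 0.42, 0.48 and 0.43 on the HS3ST2-labelled arrays, so the groups lie far apart and each is tight. It rose by 0.91 ± 0.06 log2 (1.88-fold, limma adjusted p = 4.07e-05), which ranks 260 of 19775 genes by size of difference. CDKN1A, which encodes the cyclin-dependent kinase inhibitor p21 and is the classical p53 target, moved the other way. Its single probe set read 0.21, 0.08 and 0.10 on control arrays and -0.08, -0.12 and -0.16 on HS3ST2-labelled arrays, without overlap. CDKN1A fell by 0.25 ± 0.06 (1.19-fold, adjusted p = 0.0156), and without HS3ST2 replicate 3 it was at -0.23 and no longer called (adjusted p = 0.0567). The polo-like kinases PLK2 (-0.13 ± 0.05, interval -0.25 to 0.00) and PLK3 (0.01 ± 0.07, interval -0.16 to 0.18) were not called.

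Of 8 intracellular death genes, 3 rose (37.5%), 1 fell (12.5%) and 4 were not called, where 11.5% of all genes rose and 13% fell. PHLDA3, a pleckstrin homology protein that restrains AKT, read -0.29, -0.38 and -0.38 on the control arrays and 0.48, 0.27 and 0.41 on the HS3ST2-labelled arrays. It rose by 0.73 ± 0.07 log2 (1.66-fold, limma adjusted p = 2.21e-04), and both of its probe sets were called, 235534_at at 0.93 ± 0.08 and 218634_at at 0.53 ± 0.09. These 2 sizes differed (diffSplice adjusted p = 0.0373). PMAIP1, the BH3-only protein NOXA, read -0.14, -0.19 and -0.24 on control arrays and 0.14, 0.19 and 0.16 on the others. It rose by 0.35 ± 0.05 (adjusted p = 0.00213), with both probe sets called (0.29 and 0.41).

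PERP, a membrane protein of desmosomes and a p53 effector in death, rose by 0.20 ± 0.05 (adjusted p = 0.0219). Its array values were -0.07, -0.14 and -0.11 against 0.14, 0.09 and 0.07. Its 5 probe sets fell into 3 that rose by 0.37 to 0.47 and 2 that were not called, at -0.12 and -0.10 (diffSplice adjusted p = 0.00103). The average was not called without control replicate 2 (0.19, adjusted p = 0.074), control replicate 3 (0.20, 0.0626), HS3ST2 replicate 1 (0.18, 0.0739) or HS3ST2 replicate 2 (0.21, 0.0559), or without the _x_at and _s_at probe sets (0.06, 0.616). AEN, a nuclease that enhances apoptosis, was the member of this role that fell, by 0.26 ± 0.06 (adjusted p = 0.0171). It read 0.24, 0.17 and 0.07 on control arrays and -0.10, -0.12 and -0.07 on HS3ST2-labelled arrays, and was not called without control replicate 2 (-0.25, adjusted p = 0.056) or HS3ST2 replicate 2 (-0.24, 0.058).

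BAX, APAF1, TP53I3 and ZMAT3 were not called. BAX, which permeabilises the outer mitochondrial membrane, read 0.49, 0.06 and -0.04 on control arrays and -0.01, -0.07 and 0.02 on HS3ST2-labelled arrays. Control replicate 1 stood above all the others, and the interval was wide (-0.19 ± 0.13, -0.48 to 0.10). BAX had the largest spread within groups of the 30 targets, a pooled SD of 0.201 against a median of 0.0631, and without control replicate 1 its difference was -0.03. APAF1, the apoptosome scaffold, stood at -0.11 ± 0.07 (interval -0.27 to 0.05) and TP53I3, a quinone oxidoreductase, at -0.05 ± 0.07 (interval -0.20 to 0.11). ZMAT3, an RNA-binding zinc finger protein, was not called as an average (0.19 ± 0.07, adjusted p = 0.0773), though all 5 of its probe sets were positive and 2 were called, 225725_at at 0.43 ± 0.07 and 219628_at at 0.29 ± 0.06.

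**Figure D2:**
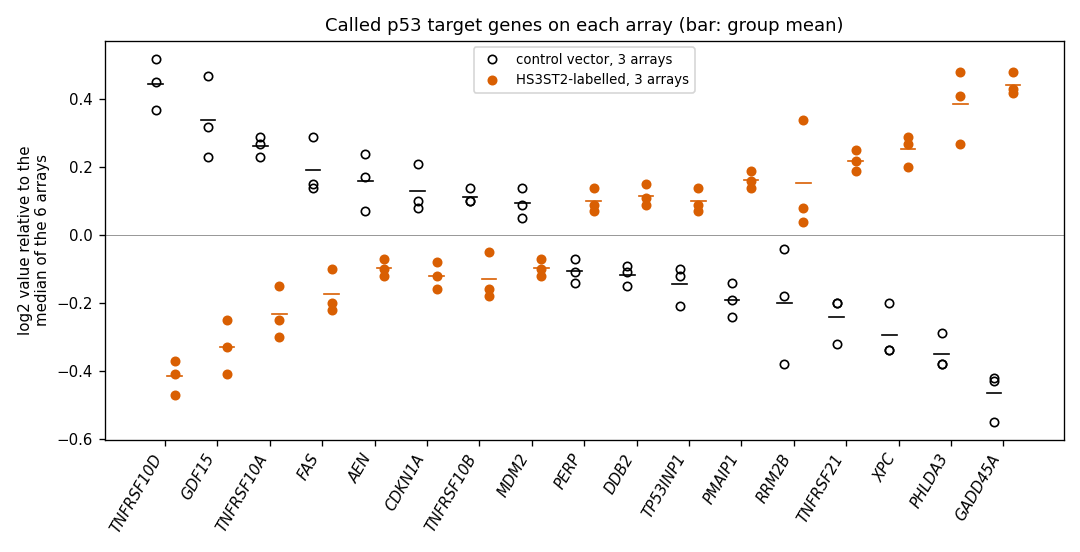
Log2 values on each of the 6 arrays for the 17 called p53 targets, relative to the median of the 6, with open circles for control vector arrays, filled circles for HS3ST2-labelled arrays and bars for group means. No gene shown has overlapping groups; TNFRSF10D and GADD45A lie at the ends, and RRM2B has the widest scatter.

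Death receptors were the role with the most called genes: 4 of 6 fell (66.7%) and 1 rose (16.7%). Over all genes 13% were lower and 11.5% higher, and a share of so few genes is coarse. TNFRSF10A to TNFRSF10D encode the receptors of the death ligand TRAIL, neighbours in the genome that are similar in sequence, and whether their probe sets share signal was not tested. TNFRSF10D, a decoy receptor with a truncated death domain, fell the most. It read 0.52, 0.37 and 0.45 on control arrays and -0.37, -0.47 and -0.41 on HS3ST2-labelled arrays, a fall of 0.86 ± 0.06 log2 (1.82-fold, limma adjusted p = 5.58e-05). Both its probe sets fell, by 0.91 and 0.82.

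TNFRSF10A, which signals death, read 0.29, 0.27 and 0.23 on control arrays and -0.25, -0.30 and -0.15 on the others. It fell by 0.50 ± 0.06 (1.41-fold, adjusted p = 6.81e-04), and its 3 probe sets fell by 0.47 to 0.55. TNFRSF10B, the other signalling receptor, read 0.10, 0.14 and 0.10 against -0.05, -0.16 and -0.18 and fell by 0.24 ± 0.06 (adjusted p = 0.0151). Its probe sets differed (diffSplice adjusted p = 0.0126): 209295_at and 210405_x_at fell by 0.38 and 0.39, while 209294_x_at was at -0.28 ± 0.08 and 1556645_s_at at 0.08 ± 0.10, neither called. The TNFRSF10B call was lost without control replicate 2 (-0.23, adjusted p = 0.0546), HS3ST2 replicate 2 (-0.23, 0.0538) or HS3ST2 replicate 3 (-0.22, 0.0563). TNFRSF10C, a decoy anchored by a lipid, was not called (-0.07 ± 0.06, interval -0.21 to 0.08), and none of its 4 probe sets was. The neighbouring receptor genes thus had differences from -0.86 to -0.07.

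FAS, the receptor for FAS ligand, read 0.15, 0.29 and 0.14 on control arrays and -0.22, -0.10 and -0.20 on HS3ST2-labelled arrays. It fell by 0.37 ± 0.06 (1.29-fold, adjusted p = 0.00423). Of its 5 probe sets, 4 fell by 0.46 to 0.63, and 233820_at was higher on each HS3ST2-labelled array than on each control array without being called (0.23 ± 0.08, adjusted p = 0.0991). The probe sets differed (diffSplice adjusted p = 3.8e-04). The 4 that fell all have names ending in _x_at or _s_at, so that without such probe sets FAS reads 0.23 with no call. TNFRSF21, death receptor 6, was the receptor that rose. It read -0.32, -0.20 and -0.20 on control arrays and 0.22, 0.25 and 0.19 on the others, a rise of 0.46 ± 0.06 (1.37-fold, adjusted p = 8.62e-04) with both probe sets called.

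The DNA repair and nucleotide genes rose in 3 of 4 cases (75%), where 11.5% of all genes did, and 1 of these calls was weak. XPC, which recognises distorted DNA to start nucleotide excision repair, read -0.34, -0.34 and -0.20 on control arrays and 0.29, 0.20 and 0.27 on HS3ST2-labelled arrays. It rose by 0.55 ± 0.06 log2 (1.46-fold, limma adjusted p = 4.75e-04). DDB2, which finds ultraviolet lesions in the same pathway, rose by 0.23 ± 0.05 (1.17-fold, adjusted p = 0.0119). Its values were -0.15, -0.09 and -0.11 against 0.09, 0.11 and 0.15, so a small difference is clear of a small spread.

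RRM2B, the p53-inducible ribonucleotide reductase subunit, read -0.38, -0.18 and -0.04 on control arrays and 0.08, 0.34 and 0.04 on the others. The groups do not overlap but nearly touch, and the rise of 0.35 ± 0.11 passed by little (adjusted p = 0.0491). It was called with control replicate 3 left out (0.43) and lost with any other array left out. Without control replicate 1 it was 0.26 (adjusted p = 0.131), without control replicate 2 0.36 (0.105), without HS3ST2 replicate 1 0.39 (0.0769), without HS3ST2 replicate 2 0.26 (0.132) and without HS3ST2 replicate 3 0.41 (0.055). POLH, the polymerase that copies past ultraviolet lesions, was not called (-0.03 ± 0.06, interval -0.16 to 0.09), and its 6 probe sets ran from -0.17 to 0.16.

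Of the metabolic, autophagy and secreted stress genes, 1 fell, 1 rose (25% each, against 13% and 11.5% of all genes) and 2 were not called. GDF15, a secreted TGF-beta family cytokine raised by many stresses, read 0.47, 0.23 and 0.32 on control arrays and -0.41, -0.33 and -0.25 on HS3ST2-labelled arrays. It fell by 0.67 ± 0.08 log2 (1.59-fold, limma adjusted p = 5.45e-04). The 3 probe sets disagreed, with the smallest diffSplice adjusted p of the targets (7.32e-06). Probe set 221577_x_at read 0.90, 0.71 and 0.76 against -0.74, -0.71 and -0.72 and fell by 1.51 ± 0.07, the largest difference of the 83 probe sets. Probe set 229868_s_at fell by 0.36 ± 0.07, and 221576_at was at -0.12 ± 0.13 with overlapping groups, so GDF15 was not called without the _x_at and _s_at probe sets.

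TP53INP1, a nuclear protein of the stress response with a part in autophagy, rose by 0.25 ± 0.05 (adjusted p = 0.0129). Its array values were -0.12, -0.21 and -0.10 against 0.07, 0.14 and 0.09. Here too 1 probe set carried most of the change, 225912_at at 0.58 ± 0.08, with 244721_at at 0.23 ± 0.07 and 235602_at at -0.07 ± 0.10 (diffSplice adjusted p = 0.00237). SESN1, sestrin 1, an inhibitor of mTORC1 signalling, was not called (0.26 ± 0.10, interval 0.03 to 0.48, adjusted p = 0.103). Its groups did not overlap, but HS3ST2 replicate 1 stood at 0.34 and the other two at 0.03 and 0.05. TIGAR, a fructose bisphosphatase that slows glycolysis, was not called (-0.14 ± 0.06, interval -0.28 to 0.01).

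The probe sets of a gene differed in their change for 7 of the 19 targets read by more than 1 probe set, MDM2, PERP, PHLDA3, FAS, TNFRSF10B, TP53INP1 and GDF15, against 17.8% of 10523 such genes. In PHLDA3 the difference is one of size. In MDM2, PERP, FAS, TNFRSF10B and TP53INP1 the uncalled probe sets reach to the other side of 0. In all, 36 of the 83 probe sets have names ending in _x_at or _s_at, and 8 targets are read by nothing else. Among these 8 are the called genes CDKN1A, AEN and PMAIP1.

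**Figure D3:**
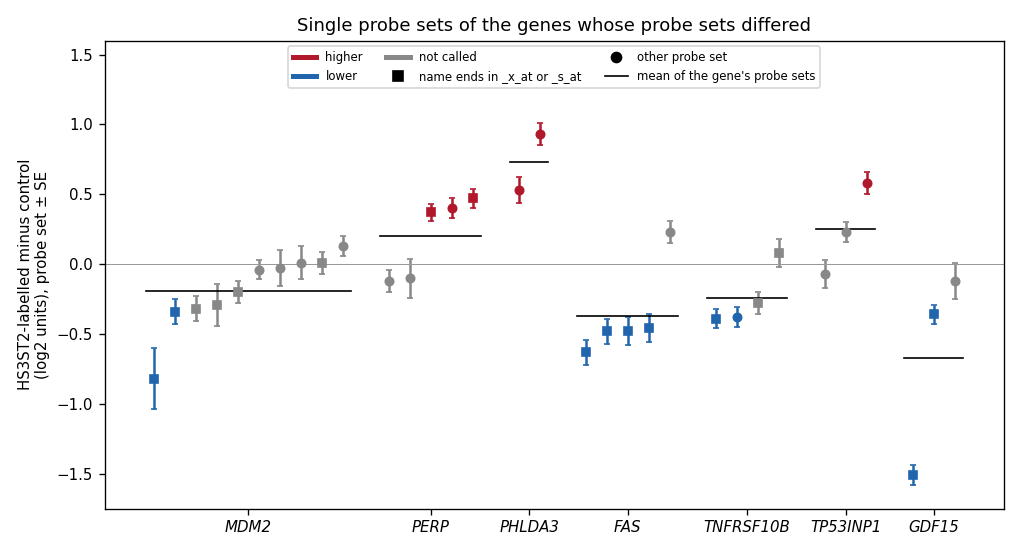
Difference ± SE of each probe set, in log2 units, for the 7 targets whose probe sets differed, with squares for names ending in _x_at or _s_at and black lines for the gene's mean. The mean of GDF15 (-0.67) lies between probe sets at -1.51 and -0.12, and that of FAS (-0.37) between a cluster of 4 that fell and 1 at 0.23.

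How firmly the calls held can be counted. With each array left out in turn, 11 of the 17 called genes stayed called every time: GADD45A, PHLDA3, PMAIP1, XPC, DDB2, TNFRSF21, TP53INP1, TNFRSF10D, TNFRSF10A, FAS and GDF15. Of these, GADD45A, PHLDA3, PMAIP1, XPC, TNFRSF21, TNFRSF10D and TNFRSF10A, 7 in all, were also called under every other alternative in which they were measured. PMAIP1 was not measured in the alternative without the _x_at and _s_at probe sets, since it has no others. The count of lower targets dropped from 8 to 5 when control replicate 2, or HS3ST2 replicate 2, or HS3ST2 replicate 3 was left out.

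Other genes of the pathway were read from 3 lists. Of 50 further p53 targets, 47 were measured, 12 rose, 5 fell and 30 were not called, with a median difference of 0.03 log2. That is 25.5% higher and 10.6% lower, where 11.5% and 13% of all genes were. IGFBP3, which binds insulin-like growth factors, rose by 1.13 ± 0.05, TRIM22 by 0.80 ± 0.07, ANXA4, a membrane-binding annexin, by 0.55 ± 0.05 and CES2, a carboxylesterase, by 0.59 ± 0.06 (all with a limma adjusted p of 3.23e-04 or less). Of 30 listed members of the p53 family, kinases and regulators, 25 were measured, 4 rose (16%) and 6 fell (24%). The kinase genes PRKDC and CHEK1 fell by 0.49 ± 0.06 and 0.36 ± 0.05, and the p53 inhibitor PPP1R13L and the deacetylase HDAC1 fell by 0.35 ± 0.06 and 0.34 ± 0.05. The 4 that rose were CHEK2 (0.34 ± 0.06), HIPK2 (0.22 ± 0.06), SETD7 (0.33 ± 0.07) and SIRT1 (0.38 ± 0.10). The kinase genes thus went both ways. TP73, the p53 relative, was not called (-0.07 ± 0.05), and TP63 was not analysed here. Without control replicate 1 or HS3ST2 replicate 3, 2 genes of this list rose.

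In cells with active p53, many cell cycle genes are lowered indirectly, since p21 lets the DREAM repressor complex form on their promoters. The cells here are described as p53-mutant. Of 30 such genes listed, 29 were measured, 27 fell, none rose and 2 were not called, with a median of -0.72 log2. That is 93.1% lower, where 13% of all genes were. CDC20, which switches on the ubiquitin ligase of anaphase, fell by 1.49 ± 0.07, the centrosomal kinase NEK2 by 1.37 ± 0.07, the CDK-binding CKS1B by 0.96 ± 0.05 and PRC1, which bundles spindle microtubules, by 0.93 ± 0.05. The uncalled genes were CDC25A (-0.20 ± 0.08) and E2F1 (0.05 ± 0.05), and CHEK1 stands in both this list and that of the kinases. CDKN1A, the gene for p21, was itself lower on these arrays. Whether p53, p21 or DREAM had a part in the fall of this list was not tested.

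**Figure D4:**
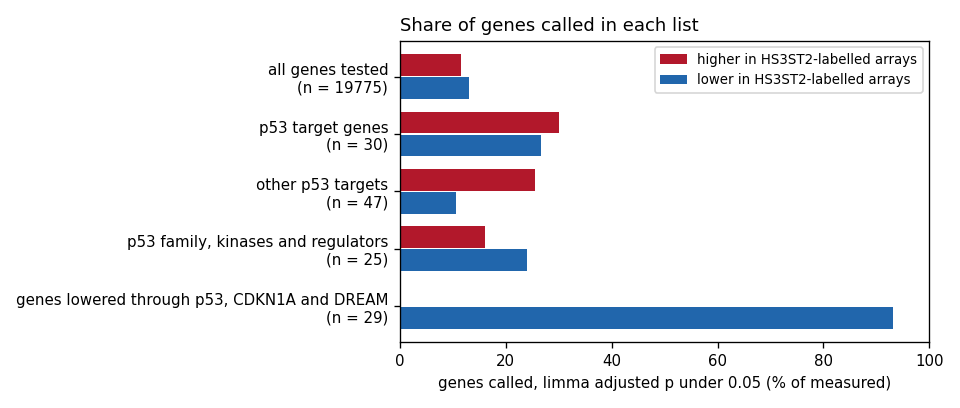
Percentage of measured genes called higher or lower (limma adjusted p under 0.05) for all genes and for 4 lists, with the number measured beside each name. The p53 targets were called in both directions at similar shares (9 and 8 of 30). In the list named for p53, CDKN1A and DREAM, 27 of 29 genes were called lower and none higher. That list is named for a known route, which was not tested here.

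The genes next to the targets were compared with the neighbours of all genes. For each target the 5 measured genes on either side were taken in RefSeq order, and the median difference of these 10 neighbours lay within the central 95% of such medians over all genes (-0.17 to 0.16) for 28 of the 30. The exceptions were MDM2 and TP53INP1. The neighbours of MDM2 had a median of -0.23, with 5 called lower and none higher, on the side to which MDM2 itself moved. Those of TP53INP1 had a median of -0.18, with 3 lower and 1 higher, while TP53INP1 was higher.

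The arrays differed in other ways that ran with the groups. The median of 6 ribosomal RNA control probe sets was between -0.29 and -0.06 on control arrays and between 0.02 and 0.74 on HS3ST2-labelled arrays, highest on HS3ST2 replicate 3. The 3 control probe sets of the housekeeping gene GAPDH read between 0.12 and 0.15 on control arrays and between -0.19 and -0.12 on HS3ST2-labelled arrays, a separation similar in size to the smaller called differences of the targets. The 3′ minus 5′ difference of the GAPDH control probe sets stayed between -0.03 and 0.04, and that of ACTB ran from -0.21 to 0.18. Of the marker lists, 1 of 3 basal markers rose (CDH3) and none fell, and 3 of 10 luminal markers rose and none fell. For leukocyte markers 3 of 7 rose and 1 fell. Of 6 mesenchymal markers 2 fell and none rose, and none of 6 fibroblast markers was called. The shares called were 33.3%, 30%, 57.1%, 33.3% and 0% in that order, against 24.5% of all genes. By direction, 33.3% of the basal and 30% of the luminal markers were higher, against 11.5% of all genes. Of the mesenchymal markers 33.3% were lower, against 13%, and each of these lists is short. The mean of the basal markers lay between -0.51 and -0.39 on control arrays and between 0.40 and 0.57 on the others. CDH3 rose by 2.32 ± 0.09, and KRT5 (0.17 ± 0.12) and KRT14 (0.23 ± 0.08) were not called. The mean of the leukocyte markers lay between -0.14 and -0.09 on control arrays and between 0.11 and 0.17 on the others. ITGB2 rose by 1.11 ± 0.05, LCP1 by 0.78 ± 0.05 and CORO1A by 0.37 ± 0.07, and LAPTM5 fell by 0.59 ± 0.07. PTPRC, which defines leukocytes (-0.08 ± 0.07), CD3E (0.04 ± 0.06) and CD14 (0.14 ± 0.06) were not called. The part of these array and marker differences in the differences of the p53 targets was not tested. In bulk RNA, a change in the mix of cells and a change within each cell cannot be told apart. Over pairs of arrays, the median absolute difference of the 30 targets ran from 0.0392 to 0.0937 log2 for arrays of the same group and from 0.177 to 0.286 for arrays of different groups. Over all probe sets it also separated the groups, with 0.1 to 0.122 within and 0.16 to 0.193 between them. The values of the targets are averages over the probe sets of each gene, so the 2 sets of ranges are not on the same footing.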

How the data were processed

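The deposited table holds log2 values of 54675 probe sets on 6 arrays. Per the submitters' processing notes the authors used RMA. The median of every probe set over the 6 arrays was 0 within 1e-06, so the values had been centred per probe set. No source used here names the software or the log base, which was taken as 2. Arrays hold no read depth, and their number limits the precision.

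Control probe sets (62) were left out. The platform annotation held 1 symbol for 41091 probe sets, several for 1801 and none for 11721. Probe sets with 1 symbol were averaged per gene under current symbols, matched for 41037 by gene number. Groups were compared with limma 3.58.1 (lmFit, eBayes and diffSplice, R 4.3.3) without covariates, with Benjamini-Hochberg adjustment over all genes, all probe sets or all genes with several probe sets. The scripts were tested on simulated data. Named genes are every measured target, TP63, TP73, HS3ST2 and up to 4 called genes of each other list with the smallest p. CDC25A, E2F1, CHEK2, SETD7, SIRT1, HIPK2 and the basal and leukocyte markers were named after their values were seen. The targets, lists and tests were chosen with earlier results of these data known. Promoter sequences are RefSeq's. The 15 alternatives were a replicate block, each array left out, quantile normalization, median centring, array weights, robust eBayes, thresholds of 0.01 and 0.1, no _x_at or _s_at probe sets, and the probe set with the largest SD.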

Additional observations from a re-analysis of the deposited data

How the results depend on the processing

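Over 15 alternatives, 400 of 442 values of the targets stayed on the same side of the threshold. Some alternatives could change few calls by their nature, so this count is not a measure of firmness alone. A threshold of 0.1 cannot lose a call, and median centring acts on arrays whose medians were already 0. The sign changed in 10 values, 8 of them of uncalled genes with small differences (PPM1D, PLK3, TP53I3, TNFRSF10C and POLH). Each array left out in turn gave 7 to 8 higher and 5 to 8 lower target genes, 12 to 14 higher and 10 to 15 lower target probe sets, 4 to 6 genes whose probe sets differed, and 2 to 4 higher genes among the p53 family, kinases and regulators. At an adjusted p under 0.01, 5 target genes were higher and 4 lower, 7 target probe sets were lower and 2 regulators higher. Without the _x_at and _s_at probe sets, 22 targets were measured, of which 6 were higher and 3 lower; of 47 target probe sets 10 were higher and 6 lower, 3 of 12 genes had probe sets that differed, and 2 of 18 regulators were higher and 3 lower. In that setting MDM2 was at 0.02 and FAS at 0.23, both on the other side of 0, since the probe sets that carried their fall were removed. Deviations from the group means correlated weakly between same-numbered replicates (r = 0.15, 0.04 and -0.08). Between differently numbered replicates r ran from -0.19 to 0.18. With 3 arrays per group these values cannot decide whether the numbers pair the arrays. With the replicate block 8 targets were higher and 7 lower, and MDM2 (adjusted p = 0.059) and RRM2B (0.0501) were not called. No scaling moved the median of all genes by over 0.1 log2, which had little room to differ because the array medians were already 0. Since levels are lost, signal over background cannot be read for any probe set.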
